A study of Mus musculus with 2 samples.

Results

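Transcripts of Fc receptors, Trem receptors and the ITAM adaptor chains they signal through were examined in 2 mouse testis libraries. The set is a list of 10 symbols, matched among the 18722 loci of the deposited table. All 10 were found, and all 10 had at least 1 CPM (counts scaled to the library total) in 1 library. One library is labelled shDmrt1, with the genotype Dmrt1 knockdown, and the other shControl, with the genotype WT; the prefix is the usual one for a short hairpin RNA. Both were from male C57BL/6J mice at 16 weeks of age. How the hairpins were delivered, which cells took them up and how many animals each library holds are not stated in the labels. Dmrt1, the targeted gene, had 39 counts in the shDmrt1 library and 852 counts in the shControl library.

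Fc receptors bind the constant region of antibodies and let phagocytes, mast cells and natural killer cells respond to what the antibody has coated. Most activating receptors of this kind, and the Trem receptors of myeloid cells, have no signalling tail of their own. They pair with a short membrane chain, Fcer1g (the Fc receptor gamma chain) or Tyrobp (DAP12), whose immunoreceptor tyrosine-based activation motif (ITAM) is phosphorylated by Src-family kinases and recruits the kinase Syk. Fcgr2b is the inhibitory counterpart, with an inhibitory motif (ITIM) in its tail. In the testis, macrophages of the interstitium are the main resident cells known to carry these receptors.

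The libraries held 24594371 counts for shDmrt1 and 17846426 counts for shControl, and each group is 1 library. The groups could therefore not be tested against each other, no p-value is given and no value has a replicate check: each compares 2 libraries, not the conditions. Ratios are shDmrt1 over shControl on counts scaled by TMM (a factor that aligns the bulk of the genes), given as log2 with a 95% interval that covers counting error only. A gene is called higher or lower where that whole interval lies beyond 2-fold. By this rule 17.8% of the 15104 loci that passed the filter were higher in shDmrt1 and 20.8% were lower, and their median log2 ratio was -0.02. Markers of the somatic cells of the testis were called lower in 9 of 12 cases and summed to 417 CPM in shDmrt1 and 17992 CPM in shControl. That sum is led by the Leydig cell genes Insl3 and Cyp17a1, at 11327 and 4703 CPM in shControl, so it does not describe all somatic cells alike. The contractile genes Acta2, Myh11 and Cnn1 were not called, with log2 ratios of -0.45, 0.10 and -1.09. Germ cell markers were lower in 9 of 9 and summed to 3.98 CPM in shDmrt1 and 176 CPM in shControl, with Sall4 and Acrv1 at 0 in shDmrt1. In shControl itself Prm1, Prm2 and Tnp1, chosen after their values were seen, were at only 2.41, 5.10 and 3.08 CPM. Whether the shControl library stands for ordinary whole adult testis was not tested. The part of somatic and germ cells in the ratios below was not tested either. In bulk tissue a change in the number of cells and a change in RNA per cell cannot be told apart, which holds for every gene below.

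Of the 10 genes, 9 were called higher in the shDmrt1 library and none lower, against the 17.8% and 20.8% of all loci. Trem1 and Trem3 had no control counts, so their 2 calls follow from passing the filter. The median log2 ratio of the 10 genes was 4.80, also with these 2 set against a floor of 3 control counts. The exception was Fcgrt, a relative of MHC class I that signals through neither ITAM chain and is widely expressed outside blood cells. The authors' deposited table, which compares the same single libraries by EBSeq, calls the same 9 genes up and Fcgrt normal, against 10.5% of the 15104 loci to which it gives a call.

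**Figure D1:**
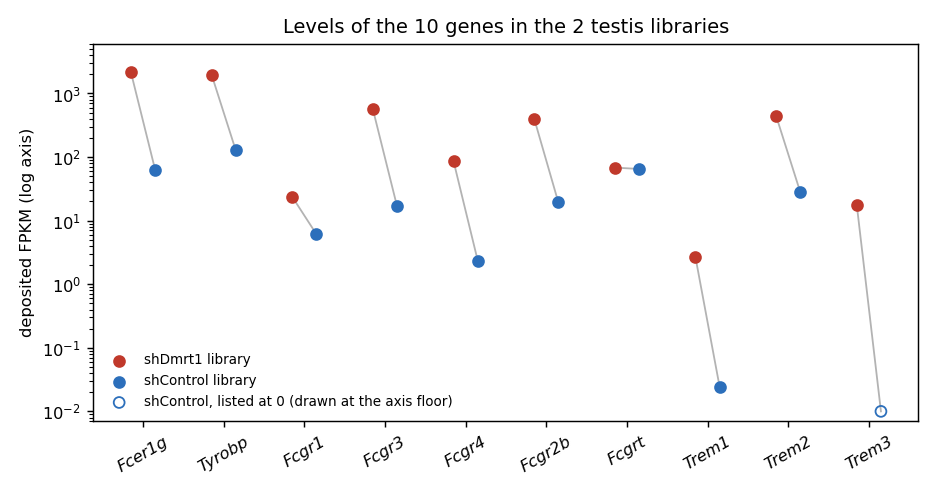
Deposited FPKM (fragments per kilobase, as scaled by the authors, log axis) of each gene, 1 library each. The shDmrt1 library is red, on the left, and the shControl library is blue, on the right. The points of Fcgrt are level, at 68.2 FPKM in shDmrt1 and 64.95 FPKM in shControl, while the other 9 pairs slope down to shControl, with Trem3 listed at 0 there (open circle).

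By FPKM, the signalling chains were the most abundant of the set in the shDmrt1 library. By counts, which are not per length, Fcgr3 (13855) and Fcgr2b (13352) exceeded Tyrobp there. Fcer1g (ENSMUSG00000058715, chromosome 1, 171229572 to 171234365 on GRCm38, minus strand) had 16235 counts in shDmrt1 and 470 counts in shControl. Its level per length was 2150 FPKM in shDmrt1 and 63.3 FPKM in shControl, which ranked it 69th of all loci in shDmrt1 and 1357th in shControl. Its log2 ratio was 5.09 (4.96 to 5.23), a 34.0-fold difference. Tyrobp (ENSMUSG00000030579, chromosome 7, 30413760 to 30417585, plus strand) had 10411 counts in shDmrt1 and 629 counts in shControl, or 1976 FPKM in shDmrt1 and 128 FPKM in shControl. The 2 chains changed order by FPKM: Fcer1g led in shDmrt1, whereas Tyrobp was the highest of the 10 in shControl. Tyrobp had a log2 ratio of 4.03 (3.91 to 4.15), so the ratio of Fcer1g exceeded that of Tyrobp by 1.06 on the log2 scale (0.89 to 1.24, counting error only). Per length, Fcer1g stood at 1.09 times Tyrobp in shDmrt1 and at 0.496 times Tyrobp in shControl.

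The activating IgG receptors, which use Fcer1g, fell into a pair with large ratios and 1 receptor with a small one. Fcgr3 (chromosome 1, 171051174 to 171064935), the low-affinity receptor CD16, had 13855 counts in shDmrt1 and 426 counts in shControl. Its log2 ratio was 5.0 (4.86 to 5.15), a 32.0-fold difference. Fcgr4 (chromosome 1, 171018920 to 171029761), a mouse receptor for IgG2 subclasses, had 1781 counts in shDmrt1 and 46 counts in shControl, with a log2 ratio of 5.24 (4.83 to 5.71). Neither could be told from Fcer1g within counting error. The ratio of Fcgr3 minus that of Fcer1g was -0.09 (-0.28 to 0.11), and that of Fcgr4 minus Fcer1g 0.16 (-0.28 to 0.61). Fcgr1 (chromosome 3, 96282909 to 96293969), the high-affinity receptor CD64 and a common marker of macrophages, had 1211 counts in shDmrt1 and 222 counts in shControl. Its log2 ratio was 2.42 (2.22 to 2.64), a 5.37-fold difference, and lay 2.66 below that of its chain Fcer1g on the log2 scale (-2.91 to -2.42). By the deposited FPKM the Fcgr1 ratio was smaller still, 23.7 FPKM in shDmrt1 against 6.12 FPKM in shControl, a log2 ratio of 1.94 with a pseudocount of 0.1. The counts per unit of FPKM for Fcgr1 were 51.1 in shDmrt1 and 36.3 in shControl, against 7.55 in shDmrt1 and 7.43 in shControl for Fcer1g.

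The inhibitory receptor was higher as well. Fcgr2b (chromosome 1, 170958617 to 170976547), the only inhibitory receptor of the set, had 13352 counts in shDmrt1 and 546 counts in shControl. Its log2 ratio of 4.59 (4.47 to 4.72) was a 24.1-fold difference. That of Fcgr3 exceeded it by 0.41 (0.23 to 0.60) and that of Fcgr4 by 0.66 (0.22 to 1.10), while that of Fcgr1 was 2.16 lower (-2.40 to -1.92). Fcgr2b and Fcgr3 share part of their sequence: of the distinct 50-base stretches in annotated transcripts, 9.58% of those of Fcgr3 also occur in Fcgr2b, which is 2.92% of those of Fcgr2b. Reads of one can therefore be counted for the other or dropped, and the difference between them is uncertain to that extent. Fcer1g, Tyrobp, Fcgr1, Fcgr4, Fcgrt and all 3 Trem genes shared no such stretch with another gene.

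**Figure D2:**
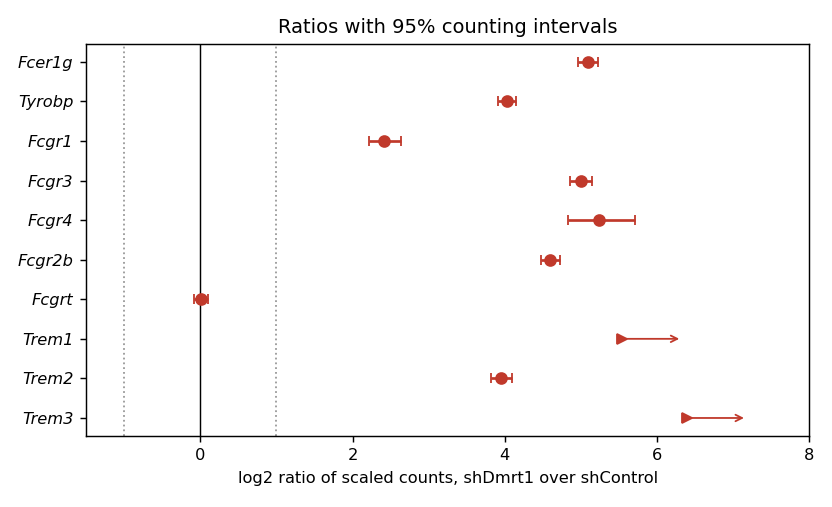
Log2 ratio of scaled counts, shDmrt1 over shControl, for each gene, with its 95% counting interval. Dotted lines mark 2-fold. Trem1 and Trem3 had 0 control counts, and their arrows start at the value against a floor of 3 counts (5.54 and 6.39). Their 95% intervals, not drawn, start at 5.23 and 6.09. Fcgrt lies at 0.01, Fcgr1 at 2.42 and the others between 3.95 and 6.39.

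Whether activating receptors gained on the inhibitory one depended on the measure. Summed FPKM of Fcgr1, Fcgr3 and Fcgr4 was 675 in shDmrt1 and 25.3 in shControl, which is 1.68 times Fcgr2b in shDmrt1 and 1.31 times in shControl. By counts the same ratio was 1.26 (1.23 to 1.29) in shDmrt1 and 1.27 (1.13 to 1.42) in shControl, and these intervals overlap. Without Fcgr1 the ratio was 1.17 (1.14 to 1.20) in shDmrt1 and 0.864 (0.763 to 0.980) in shControl by counts, with 1.62 in shDmrt1 and 0.989 in shControl by FPKM. The make-up of the activating receptors differed more plainly. Fcgr1 held 4.01% of all Fcgr counts in shDmrt1 (3.79 to 4.24, exact Clopper-Pearson interval) and 17.9% in shControl (15.8 to 20.2). Fcgr3 held 45.9% in shDmrt1 (45.3 to 46.4) and 34.4% in shControl (31.7 to 37.1). The chain Fcer1g stood at 3.18 times the summed activating receptors by FPKM in shDmrt1 and 2.51 times in shControl, and by counts at 0.964 times (0.943 to 0.985) in shDmrt1 and 0.677 times (0.601 to 0.762) in shControl. The share of Fcgr2b was 44.2% in shDmrt1 and 44.0% in shControl.

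**Figure D3:**
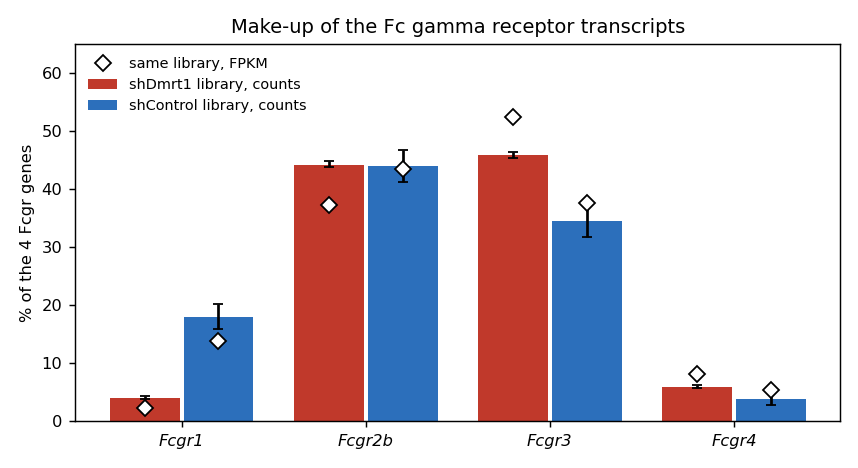
Share of the 4 Fcgr genes in their summed counts for the shDmrt1 (red) and shControl (blue) library, with 95% exact intervals, and in their summed FPKM (diamonds). The Fcgr1 bar stands at 4.01% in shDmrt1 and 17.9% in shControl, and the Fcgr3 bar at 45.9% in shDmrt1 and 34.4% in shControl.

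Fcgrt (ENSMUSG00000003420, chromosome 7, 45092990 to 45103851), the heavy chain of the neonatal Fc receptor that rescues IgG and albumin from breakdown, was not called either way. It had 1964 counts in shDmrt1 and 1921 counts in shControl, a log2 ratio of 0.01 (-0.08 to 0.10). Scaled by library totals in place of TMM its ratio was -0.43, so its direction depends on the scaling, which shifted the median of all loci by -0.44. It was the second highest of the 10 genes by FPKM in shControl and the 7th in shDmrt1. Its light chain B2m, shared with MHC class I, had 107521 counts in shDmrt1 and 16793 counts in shControl, a log2 ratio of 2.66 (2.63 to 2.68). An antisense gene, Gm45669, overlaps 5331 bases of Fcgrt, and Gm38204 overlaps 3175 bases of Fcgr2b on the other strand. The library kit keeps strand, but the strand setting of the counting is not given in the sources used here, so reads of these overlaps cannot be assigned with certainty.

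The Trem genes lie in 1 cluster on chromosome 17 and were all higher in shDmrt1, at very unequal levels. Trem2 (48346401 to 48354147), a lipid-sensing receptor of tissue macrophages, had 7605 counts in shDmrt1 and 484 counts in shControl, or 444 FPKM in shDmrt1 and 28.0 FPKM in shControl. Its log2 ratio of 3.95 (3.82 to 4.09) lay 0.08 below that of its chain Tyrobp (-0.25 to 0.10), a difference within counting error. Trem1 (48232768 to 48246924), which amplifies the inflammatory response of neutrophils and monocytes, had 142 counts in shDmrt1 and 0 in shControl, where the table still lists it at 0.0242 FPKM. Set against 3 counts in the shControl library it was 46.7-fold higher (log2 5.54), and its 95% counting interval starts lower, at log2 5.23. Trem3 (48247777 to 48258841), an activating receptor of mouse phagocytes, had 256 counts in shDmrt1 and 0 in shControl. By the same floor Trem3 was 84.1-fold higher (log2 6.39), and its interval starts at log2 6.09. Trem2 made up 95% of the Trem counts in shDmrt1 (94.5 to 95.5) and all 484 of them in shControl, where Trem1 and Trem3 had 0 each. A floor of 3 counts there is a share of 0.620%, and the exact upper limit for 0 of 484 counts is 0.759%. Tyrobp stood at 4.25 times the summed Trem FPKM in shDmrt1 and 4.56 times in shControl, and its counts at 1.30 times the Trem counts in both libraries.

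In level per length, the shDmrt1 library ran in the order Fcer1g, Tyrobp, Fcgr3, Trem2, Fcgr2b, Fcgr4, Fcgrt, Fcgr1, Trem3 and Trem1. The shControl library ran in the order Tyrobp, Fcgrt, Fcer1g, Trem2, Fcgr2b, Fcgr3, Fcgr1, Fcgr4, Trem1 and Trem3. With 1 library each, no spread between samples is known for any of these levels, so neighbours in either order cannot be separated by a test. Among genes of like level with at least 100 counts in 1 library, Anpep, Mmp2 and Cd68 had the log2 ratios nearest to that of Fcer1g, at 5.03, 5.15 and 5.02, out of 2749 candidates. For Tyrobp they were Tbc1d9 at 4.05, Fn1 at 4.01 and Cd44 at 4.06, out of 2984. These likenesses rest on 2 libraries.

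Position was compared next, since the genes lie in clusters. Fcgr2b, Fcgr4, Fcgr3 and Fcer1g lie within 276 kb of chromosome 1, an interval that holds 11 protein-coding genes, all in the deposited table. None of the 7 other genes there was called higher. Sdhc, a subunit of succinate dehydrogenase, had 2153 counts in shDmrt1 and 1522 counts in shControl (log2 0.48), and Tomm40l, a mitochondrial import gene, had 672 counts in shDmrt1 and 529 counts in shControl (log2 0.32). Apoa2, which encodes an apolipoprotein and is the nearest gene to Fcer1g in the interval, was lower, with 2 counts in shDmrt1 and 35 counts in shControl (log2 -3.85). In the 121 kb of the Trem cluster, by contrast, all 6 genes in the table were called higher. They included Treml4 (308 counts in shDmrt1 and 6 in shControl), Treml2 (171 in shDmrt1 and 23 in shControl) and B430306N03Rik (659 in shDmrt1 and 111 in shControl). Beside Tyrobp on chromosome 7 lies Hcst, which encodes the adaptor DAP10, with 499 counts in shDmrt1 and 17 counts in shControl (log2 4.81). Next to it, Nfkbid, a nuclear inhibitor of NF-kB, had 487 counts in shDmrt1 and 46 counts in shControl (log2 3.37), while Aplp1, farther along, was lower at -2.32.

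**Figure D4:**
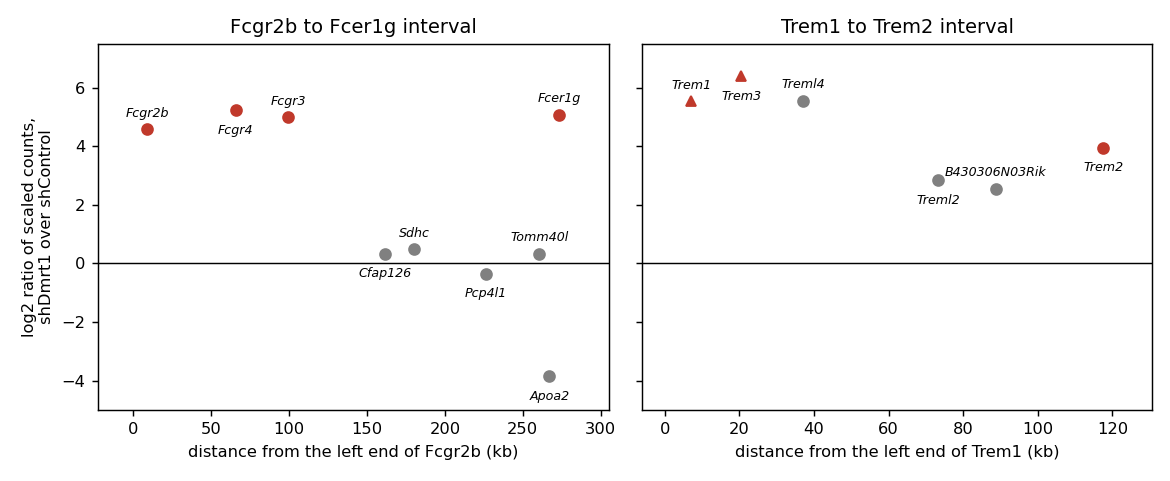
Log2 ratio of scaled counts, shDmrt1 over shControl, of genes that passed the filter, against distance in kb from the left end of Fcgr2b (left panel) or Trem1 (right panel). Red marks genes of the set and grey their neighbours; triangles are the lower bounds of Trem1 and Trem3. On the left, Fcgr2b, Fcgr4, Fcgr3 and Fcer1g stand between 4.59 and 5.24 and the grey genes between -3.85 and 0.48, whereas on the right every point lies above 2.

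Promoter windows from 250 bases before to 50 after each RefSeq start (GRCm38.p6) were read for 8 of the 10 genes, all but Tyrobp and Trem3, with a pair of starts for Fcgr3. By the GENCODE positions given above, the windows of Fcgr3 and Fcgr2b lie inside the gene, so the annotations differ on those starts. They are shown for receptors with large and small ratios, for the chain Fcer1g and for Fcgrt, in which little difference was seen. Capitals mark the PU box, GAGGAA or its reverse complement TTCCTC, which myeloid factors of the PU.1 type bind, and the gamma-activated element, TTCNNNGAA, named for genes that interferon gamma induces. Each sequence runs 5′ to 3′ on the strand of its gene.
Fcer1g (chr1:171234300-171234599, minus strand): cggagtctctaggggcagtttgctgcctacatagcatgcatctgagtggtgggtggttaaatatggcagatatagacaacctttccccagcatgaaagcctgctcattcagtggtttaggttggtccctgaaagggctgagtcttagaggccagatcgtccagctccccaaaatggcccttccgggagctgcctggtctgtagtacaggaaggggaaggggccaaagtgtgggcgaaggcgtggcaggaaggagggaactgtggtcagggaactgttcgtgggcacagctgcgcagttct
Fcgr1 (chr3:96293920-96294219, minus strand): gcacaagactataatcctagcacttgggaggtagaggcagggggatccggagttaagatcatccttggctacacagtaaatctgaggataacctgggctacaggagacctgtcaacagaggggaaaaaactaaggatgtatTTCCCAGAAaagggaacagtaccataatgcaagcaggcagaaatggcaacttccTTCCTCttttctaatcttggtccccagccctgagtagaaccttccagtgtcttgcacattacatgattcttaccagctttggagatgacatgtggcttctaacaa
Fcgr3 (chr1:171059354-171059653, minus strand): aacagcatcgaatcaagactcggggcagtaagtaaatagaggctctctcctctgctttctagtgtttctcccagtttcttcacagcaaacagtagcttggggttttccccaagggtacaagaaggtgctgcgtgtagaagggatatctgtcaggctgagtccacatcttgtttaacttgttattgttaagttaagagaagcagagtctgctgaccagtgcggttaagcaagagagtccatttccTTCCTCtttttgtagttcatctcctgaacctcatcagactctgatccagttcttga
Fcgr4 (chr1:171018676-171018975, plus strand): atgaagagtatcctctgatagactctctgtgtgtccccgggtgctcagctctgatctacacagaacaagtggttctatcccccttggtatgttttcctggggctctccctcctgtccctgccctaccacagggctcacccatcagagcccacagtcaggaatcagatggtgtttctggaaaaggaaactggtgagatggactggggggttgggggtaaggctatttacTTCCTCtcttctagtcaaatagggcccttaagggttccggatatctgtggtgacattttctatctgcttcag
Trem2 (chr17:48346151-48346450, plus strand): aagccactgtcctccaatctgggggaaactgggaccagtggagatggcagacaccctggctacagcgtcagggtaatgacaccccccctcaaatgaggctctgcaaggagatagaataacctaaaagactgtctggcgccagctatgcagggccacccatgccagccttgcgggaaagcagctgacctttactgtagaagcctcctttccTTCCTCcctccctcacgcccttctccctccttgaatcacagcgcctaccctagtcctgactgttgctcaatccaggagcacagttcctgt
Fcgrt (chr7:45103773-45104072, minus strand): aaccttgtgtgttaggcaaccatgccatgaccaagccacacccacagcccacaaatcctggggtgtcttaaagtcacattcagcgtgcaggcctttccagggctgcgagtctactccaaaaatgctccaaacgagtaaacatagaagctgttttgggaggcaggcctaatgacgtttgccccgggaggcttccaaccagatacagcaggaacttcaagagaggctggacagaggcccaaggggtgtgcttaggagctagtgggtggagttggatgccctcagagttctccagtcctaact
On either strand, 5 of the 8 genes held a PU box (Fcgr1, Fcgr3, Fcgr4, Trem1 and Trem2), against 28.3% of all 32817 promoter windows. The gamma-activated element was found in Fcgr1, as TTCCCAGAA at -109 to -101 relative to the start, and in Trem1, against 8.29% of all windows. In Trem1 the element stands directly before the PU box without overlap. The C/EBP form TTGCNNAA was found in Fcgr3, Trem2 and Fcgrt, against 10.8% of windows, and the form GGGNNTTTC, the first 9 letters of a common NF-kB site, in Fcgr3, against 4.36%. The form ACATTGT, from the core of the Dmrt1 site, was in none of the 8, against 2.97% of all windows. These motifs were chosen with the sequences in view, and a match is a description of letters, not a bound site.

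Most genes of the wider pathway lists, upstream of, beside and downstream of the chains, were higher too. Over the lists of kinases, adaptors, inhibitors, partner receptors, other ITAM and related chains, other Fc-binding genes and Trem ligands, 88 genes were measured, of which 71 were called higher and 4 lower, beside the 17.8% and 20.8% of all loci. The median log2 ratio of the 88 was 2.76. Of 10 kinases, 9 were higher and 1 was neither, with a median of 2.63. Syk, which docks on phosphorylated ITAMs, had 10528 counts in shDmrt1 and 1249 counts in shControl (log2 3.05, interval 2.97 to 3.14). The Src-family kinase Fgr, found mainly in myeloid cells, had 2647 counts in shDmrt1 and 111 counts in shControl (log2 4.55). Fyn, a relative found in many tissues and chosen after its value was seen, was not called, with 1759 counts in shDmrt1 and 3550 counts in shControl (log2 -1.03), but was called lower with library totals and by the 1.5-fold rule.

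Adaptors and effectors followed the kinases, with 14 of 16 higher, 2 neither and a median of 2.64. Malt1, a paracaspase that carries the signal to NF-kB together with Card9 and Bcl10, had 8778 counts in shDmrt1 and 458 counts in shControl (log2 4.24). The exchange factor gene Vav1 stood at 3.56 and the membrane adaptor gene Lat2 at 3.39. Inhibitors of the pathway were higher in a like number of cases, 11 of 14 with 3 neither and a median of 2.60. The clearest examples were Sirpa, an ITIM receptor that binds CD47, with 35187 counts in shDmrt1 and 2037 counts in shControl (log2 4.09), Cd300a (3.97) and Cd33 (3.74). The phosphatase gene Ptpn6 had a log2 ratio of 3.73, against -0.18 for its widely expressed relative Ptpn11, both chosen after their values were seen.

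Other receptors that use the same chains included the largest ratios of the pathway lists. Of 8 measured partners of Fcer1g, 6 were higher, 1 was lower and the last was neither. Their median was 4.45, also with 1 gene at its bound. The lectin receptor genes Clec4e and Clec4d, which sense microbes and dead cells, had 46617 and 10118 counts in shDmrt1 and 41 and 16 counts in shControl. Gp6, the collagen receptor of platelets, had 472 counts in shDmrt1 and 1 count in shControl, a log2 ratio of 8.28 (6.38 to 14.17). Oscar, a collagen receptor of osteoclasts and myeloid cells, was the lower one, with 0 counts in shDmrt1 and 26 counts in shControl, a level that a filter at 5 CPM removes. The chains of the IgE receptor that also pair with Fcer1g, Fcer1a and Ms4a2, had 16 counts each in shDmrt1 and 0 in shControl, and did not pass the filter. Of 16 measured partners of Tyrobp and Trem-like genes, 14 were higher and 1 was lower. Their median was 3.96, or 3.94 with 1 gene at its bound. Clec5a, a lectin of myeloid cells, had 3306 counts in shDmrt1 and 88 counts in shControl (log2 5.20), and Pilrb2 had 827 in shDmrt1 and 22 in shControl (log2 5.18). Its near relative Pilrb1 went the other way, with 1 count in shDmrt1 and 27 counts in shControl, and is removed by the same filter.

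Other ITAM and related chains were higher in 6 of 7 cases, with a median of 3.01. They include the T cell chain genes Cd3d (log2 3.75) and Cd3g (log2 3.24), and of the B cell chain genes, chosen after their values were seen, Cd79b was called higher (log2 1.62) and Cd79a was not called (log2 0.74). Among 8 other Fc-binding genes the median was 2.39, with 6 called higher and 1 lower. Fcrlb, an intracellular relative in B cells, had 222 counts in shDmrt1 and 7 counts in shControl (log2 4.87). Fcrls, a scavenger-like relative known from resident macrophages and microglia, was the lower one, with 23 counts in shDmrt1 and 293 counts in shControl (log2 -3.66). Trem ligands and sheddases went both ways, with 5 higher, 1 lower and 3 neither of 9 and a median of 1.18. Lgals3 (galectin-3) stood at 5.36, Pglyrp1, which binds Trem1, at 3.43, and Clu (clusterin), abundant in Sertoli cells, at -3.24. The antibody heavy chain genes, the ligands of Fc receptors, were not analysed here.

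**Figure D5:**
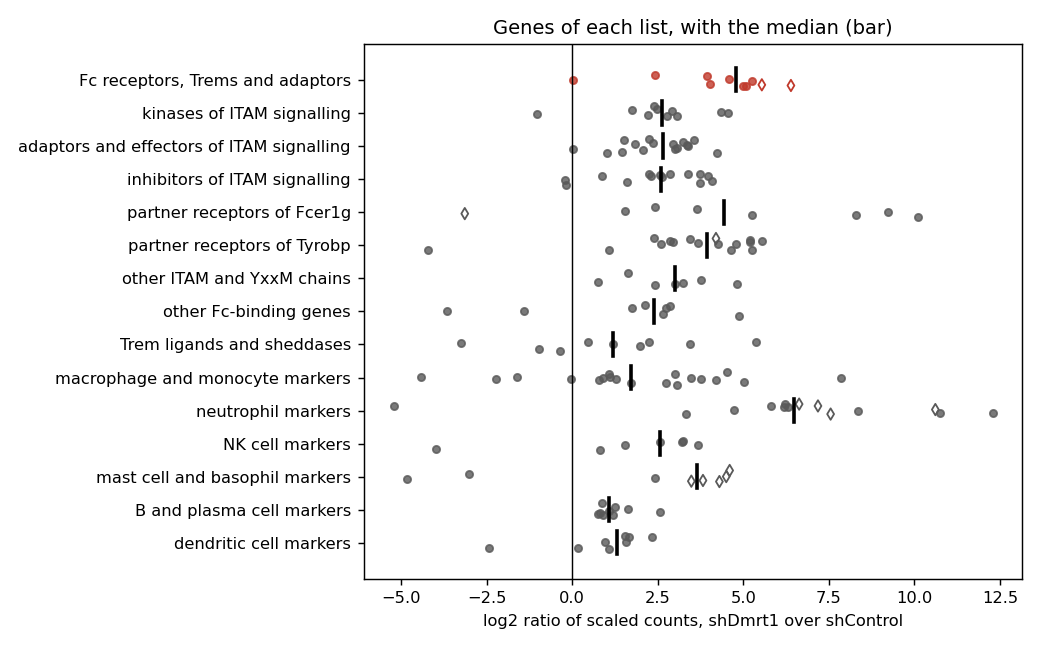
Log2 ratios of scaled counts, shDmrt1 over shControl, of the measured genes of each list (points), with the median (bar); open diamonds are genes with 0 counts in 1 library, drawn at their bound. The 10 Fc receptor, Trem and adaptor genes (red) have their median at 4.80, against 2.63 for the kinases and 1.71 for the macrophage and monocyte markers.

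Markers of the blood cell types that can carry these receptors were called higher in unequal shares. Among 19 markers of macrophages and monocytes the median was 1.71, with 13 called higher and 3 lower, and they summed to 5254 CPM in shDmrt1 and 1438 CPM in shControl. None of the 19 was at 0 counts in either library. Fcer1g had a larger ratio than 18 of the 19, Fcgr3 than 17 and Trem2 than 15, against 10 for Fcgr1 and 4 for Fcgrt. Relative to Adgre1 (F4/80), itself higher by 3.48, Fcer1g was higher by 1.61 on the log2 scale, Fcgr3 by 1.53, Fcgr2b by 1.11, Tyrobp by 0.55 and Trem2 by 0.48, whereas Fcgr1 was at -1.05. Relative to the lysosomal marker Cd68, Fcer1g stood at 0.07 and Fcgr3 at -0.01. Marco, a scavenger receptor, had the largest ratio of the list (log2 7.84). The 3 lower markers, Cd163, Folr2 and Mrc1, known from resident macrophages of many tissues, had log2 ratios of -4.43, -2.24 and -1.61. Other markers known from such cells were called higher: Lyve1 with 604 counts in shDmrt1 and 32 counts in shControl (log2 4.20), Mertk (1.71), C1qb (1.11) and C1qc (1.07), named after their values were seen.

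Neutrophil markers had the largest median of the marker lists, with 13 of 14 higher and a median of 7.33, or 6.47 with the 4 genes at 0 control counts at their bound. Their levels in shDmrt1 ran from 3.46 to 307 CPM. The lower one, Lcn2, had 2480 counts in shDmrt1 and 90859 counts in shControl, so the list summed to 1123 CPM in shDmrt1 and 5106 CPM in shControl. S100a8, Elane, Mmp8 and Retnlg were at 0 in shControl, as Trem1 and Trem3 were, so their higher calls follow from passing the filter. Of 8 measured mast cell and basophil markers, 6 were higher and 2 lower (Kit and Hdc, which other cells of the testis also express). Of the higher ones, 5 had 0 control counts and passed the filter only through shDmrt1, which fixed their calls. None of the 6 higher markers reached 5 CPM, so a filter at that level left 0 higher calls and both lower ones. Tpsab1 and Cpa3, proteases of mast cell granules, had 74 and 69 counts in shDmrt1 and 0 counts in shControl. Among 7 natural killer cell markers the median was 2.57, with 4 called higher and 1 lower, led by Nkg7 (log2 3.68). B and plasma cell markers had a median of 1.06 with 2 of 9 higher, a share near the 17.8% of all loci, led by Cd22 (log2 2.57). That count was 1 with library totals, 6 by FPKM and 9 by the 1.5-fold rule. Dendritic cell markers had a median of 1.32 with 4 of 8 higher and 1 lower, led by Itgax (log2 2.32), and 1 higher with library totals. The part of each cell type in the ratios of the Fc and Trem receptors was not tested.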

How the data were processed

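Testis RNA was sequenced in 2 libraries. Per the labels' protocols, TRIzol was used for extraction and the mRNA kit keeps strand. Tools that the submitters' processing notes list, without role or order, are DESeq, edgeR 3.12.1, featureCounts, STAR 2.5.3a, Subread 1.5.1 and Trimmomatic 0.36, with build mm10; no source used here names the annotation. The deposited table gives raw counts and FPKM values per locus, made by the authors, and their EBSeq comparison, per the file headers.

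Counts served for ratios and FPKM for levels between genes. TMM factors (edgeR 4.0.16, R 4.3.3) were 0.858 for shDmrt1 and 1.166 for shControl. Log2 ratios used a prior count of 0.5, and intervals are Clopper-Pearson intervals of the shDmrt1 share of both counts. Intervals of a difference between genes are Woolf intervals of the odds ratio. The floor of 3 counts is 0.122 CPM in shDmrt1 and 0.168 CPM in shControl. No molecular identifiers are named in the sources used here, and all of these cover counting error only. Positions are from GENCODE M21 (GRCm38, the assembly that mm10 names) and promoters from RefSeq. The intervals and the calling rule were tested on simulated counts with counting error only, scaled by library totals. That test covered neither the TMM scaling nor spread between animals. Members, lists and tests were chosen with earlier results of these data known. Named list genes are up to 3 called genes per list whose interval bound nearest 0 lies farthest from it, and up to 3 called the opposite way; others are said to be chosen after their values were seen, or stand as neighbours or chain partners. Some genes that the rule names are not reported here. Alternatives were FPKM with a pseudocount of 0.1, a 1.5-fold rule, a filter at 5 CPM or none, a prior count of 5, library totals and size factors from DESeq2 1.42.0. Other software was Python 3.11.15 with pandas 2.3.3, scipy 1.17.1 and numpy 2.4.6.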

Additional observations from a re-analysis of the deposited data

How the results depend on the processing

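No paired analysis was possible because there is 1 library in each arm, so none could be left out. The 9 higher and 0 lower calls among the 10 genes were the same number under every alternative run: library totals, DESeq2 size factors, no filter, 5 CPM, the 1.5-fold rule and FPKM. With library totals the log2 ratios were 4.65 for Fcer1g, 3.59 for Tyrobp, 1.98 for Fcgr1, 4.15 for Fcgr2b, 4.56 for Fcgr3, 4.80 for Fcgr4, -0.43 for Fcgrt and 3.51 for Trem2, and the lower bounds 5.10 for Trem1 and 5.95 for Trem3. FPKM with a pseudocount gave 1.94 for Fcgr1 and 4.37 for Fcgr2b. DESeq2 size factors left all 10 within their intervals, and a prior count of 5 did so for the 8 genes it was run for. The activating to inhibitory Fcgr ratio by FPKM was 1.68 in shDmrt1 and 1.31 in shControl, and without Fcgr1 1.62 in shDmrt1 and 0.989 in shControl. By counts it was 1.26 in shDmrt1 and 1.27 in shControl, and without Fcgr1 1.17 in shDmrt1 and 0.864 in shControl. By FPKM, Trem1 held 0.572%, Trem2 95.6% and Trem3 3.81% of the Trem sum in shDmrt1. Pathway genes called lower numbered 2 at 5 CPM and 7 by the 1.5-fold rule, against 4. Among the single lists, higher calls moved by over 1.5 times for mast cell and basophil markers (0 at 5 CPM), for B and plasma cell markers (1 with library totals, 9 by the 1.5-fold rule, 6 by FPKM) and for dendritic cell markers (1 with library totals). Lower calls went to 0 at 5 CPM for the partners of Fcer1g, the partners of Tyrobp, natural killer and dendritic cell markers, against 1 each, since the filter removes those genes. They went to 1 for the kinases (Fyn) and to 2 for Trem ligands and sheddases with library totals and the 1.5-fold rule, and to 2 for other Fc-binding genes by the 1.5-fold rule. The cause of the other shifts was not tested. The 46 control counts of Fcgr4 and the 0 of Trem1 and Trem3 limit their ratios most.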
